A study of Trichoderma reesei with 8 samples.

Results

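The genes described here encode parts of the machinery of protein synthesis in *T. reesei*. They are the gene models in the annotated gene list of the study whose annotation holds the letters ribosom, tRNA, translation or nucleolar, and 37 of the 9126 gene models met this rule. The rows of that list used here covered 1577 gene models from the alphabetical start of the list, so only 3 cytosolic ribosomal proteins were among them, and most of the subunits of the ribosome were not analysed here. By their annotation, 8 members were mitochondrial ribosomal proteins, 3 were cytosolic ribosomal proteins, 4 were translation factors or regulators, 4 were aminoacyl-tRNA synthetases, 8 acted on tRNA processing or modification and 7 were put among nucleolar proteins and rRNA maturation. The last group includes a 3' exoribonuclease gene (55589) whose annotation names RNA processing but neither rRNA nor the nucleolus. A further 2 carried a ribosomal protein domain with no compartment stated, and 1 was an arginine-tRNA-protein transferase, an enzyme that marks proteins for breakdown and does not itself take part in translation. RNA came from mycelia of the wild-type strain QM6a, a filamentous fungus known for its secreted cellulases. Cultures were sampled after 48 h of growth from conidia in 1% glucose (48 h glucose, 3 libraries), 24 h after washed mycelia of that stage had been moved into medium with ground wheat straw as the carbon source (24 h straw, 3 libraries), and 5 h after glucose had been added back to straw cultures (5 h glucose, 2 libraries). All 3 conditions thus share the first 48 h on glucose, and carbon source, washing and culture age cannot be told apart between them. No culture kept on straw for the further 5 h was analysed here, so added glucose and the longer time on straw cannot be told apart either.

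Ribosomes are assembled in the nucleolus, where rRNA is transcribed, cut and modified before the subunits are exported to the cytoplasm. Mitochondria hold ribosomes of their own, whose proteins are encoded in the nucleus and which make a few subunits of the respiratory chain. Aminoacyl-tRNA synthetases load each tRNA with its amino acid, initiation factors bring the small subunit to the start codon, and in yeast the transcript levels of ribosomal protein genes rise and fall with the growth rate.

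The summed sense counts were between 1337099 and 1704969 in 48 h glucose, between 2473359 and 2997433 in 24 h straw, and 798550 and 950244 in the libraries of 5 h glucose, so members with few reads are least certain at 5 h. The libraries of 5 h glucose stood further apart than any other pair of the same condition. Over genes with at least 2000 reads in the pair, their median squared difference was 171.6 times the counting noise, against 32.6 to 53.9 times within 48 h glucose and 20.7 to 24.8 times between straw library 2 and each of the other straw libraries. Straw libraries 1 and 3 differed by only 1.65 times the counting noise. The number of members higher on straw with these libraries summed into 1 is given at the end. Levels are given as normalised RPKM, the reads of a gene per kilobase of its coding length and per 1000000 counted reads after TMM normalisation, and a fold change is on the log2 scale with its standard error (SE). A gene is called where the Benjamini-Hochberg adjusted p of edgeR's quasi-likelihood test over the 7211 genes tested was below 0.05. A level of this kind is relative to the other transcripts of the library, and fewer cells with a transcript and less of it per cell cannot be told apart.

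The scaling between libraries decided the absolute direction of many small changes. Counted gene reads were 11.3 ± 1.07 (SD, n = 3) of every 100 reads of the library total behind the deposited RPKM in 48 h glucose, 18.9 ± 1.11 (n = 3) in 24 h straw and 8.78 ± 1.99 (n = 2) in 5 h glucose. When those totals replaced the TMM-normalised counts, the median gene of the 7211 tested moved on the log2 scale by 0.80 between straw and 48 h glucose, by -1.27 between 5 h glucose and straw and by -0.46 between 5 h and 48 h glucose. The changes below are therefore to be read against the median gene. In absolute terms, 5 of 14, 4 of 17 and 0 of 16 called members changed sign under the totals on straw, at 5 h over straw and at 5 h over 48 h glucose.

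The median log2 fold change of the members between straw and 48 h glucose lay below that of all genes tested. Between 5 h glucose and straw it lay above that of all genes, and between 5 h and 48 h glucose close to it. In the fold change of straw over 48 h glucose, 28 of the 34 members tested lay below the median gene. So did the median of every role group tested (-0.12 to -1.24 relative to the median gene). At 5 h over straw the cytosolic and mitochondrial ribosomal proteins stood furthest above it, by 1.52 and 1.51. The other role groups tested ranged from -0.24 to 0.41 there. Single members departed in the opposite direction. Between 24 h straw and 48 h glucose, 2 of the 34 members tested were higher and 12 were lower, which is 41.2% called against a background of 58.8% of all genes tested (30.6% higher and 28.2% lower). The libraries of these conditions did not overlap for 16 of the 34, against 67.5% of all genes tested. Their median log2 fold change was -0.31, or -0.36 relative to the median gene, and under the totals behind the RPKM the absolute median turned to 0.47. Between 5 h glucose and straw, 14 members were higher and 3 were lower, 50% called against a background of 58.5% (28.5% higher and 30.0% lower), and 22 had no overlap, against 73.4% of all genes. The median was 0.42, or 0.46 relative to the median gene, and turned to -0.87 under the totals. Between 5 h and 48 h glucose, 10 were higher and 6 were lower, 47.1% called against a background of 48.8% (25.7% higher and 23.2% lower), and 20 had no overlap, against 62.5% of all genes, with a median of 0.08, 0.02 above the median gene and -0.36 under the totals. The members were thus called no more often than other genes in any comparison.

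The members summed to 0.793% ± 0.0735 (SD, n = 3) of all RPKM in 48 h glucose, to 0.754% ± 0.0420 (n = 3) in 24 h straw and to 1.22% ± 0.160 (n = 2) in 5 h glucose. The lowest library of 5 h glucose, at 1.10%, lay above the highest of the other libraries, at 0.863%, and the libraries of 48 h glucose and straw overlapped. As a share of counts, which weights long genes more, the members took 0.674% to 0.831% in 48 h glucose, 0.560% to 0.602% in straw and 0.867% and 0.913% in 5 h glucose, so that by counts straw lay below 48 h glucose with no overlap. The same order held without the GCN1 homologue, the longest member, with 0.404% to 0.428%, 0.288% to 0.328%, and 0.500% and 0.543%. By RPKM, cytosolic ribosomal proteins and translation factors made up most of the increase, through rps30, rps26 and the candidate eIF1A gene. Mean deposited RPKM of these rose from 194, 43.4 and 103 in 48 h glucose to 338, 122 and 265 in 5 h glucose. The other members of both groups had lower mean deposited RPKM in 5 h glucose than in 48 h glucose. The rpl15 mean went from 45.3 to 40.4 and that of the GCN1 homologue from 44.8 to 37.3. Deoxyhypusine synthase went from 9.45 to 2.61 and the possible initiation factor from 15.0 to 12.1. After TMM normalisation only deoxyhypusine synthase of these was lower at 5 h than in 48 h glucose (log2 -1.28). There rpl15, the GCN1 homologue and the possible initiation factor had log2 fold changes of 0.20, 0.24 and 0.12, with no call. The 3 cytosolic ribosomal proteins took 0.314% ± 0.0687 of all RPKM in 48 h glucose, 0.306% ± 0.0194 in straw and 0.593% ± 0.163 in 5 h glucose, and the 4 translation factors and regulators 0.194% ± 0.0121, 0.203% ± 0.0157 and 0.385% ± 0.0116. The mitochondrial ribosomal proteins followed another course, with 0.0947% ± 0.00624 in 48 h glucose, 0.0542% ± 0.00321 in straw and 0.0959% ± 0.00358 in 5 h glucose. Shares within a library do not depend on the library total.

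**Figure D1:**
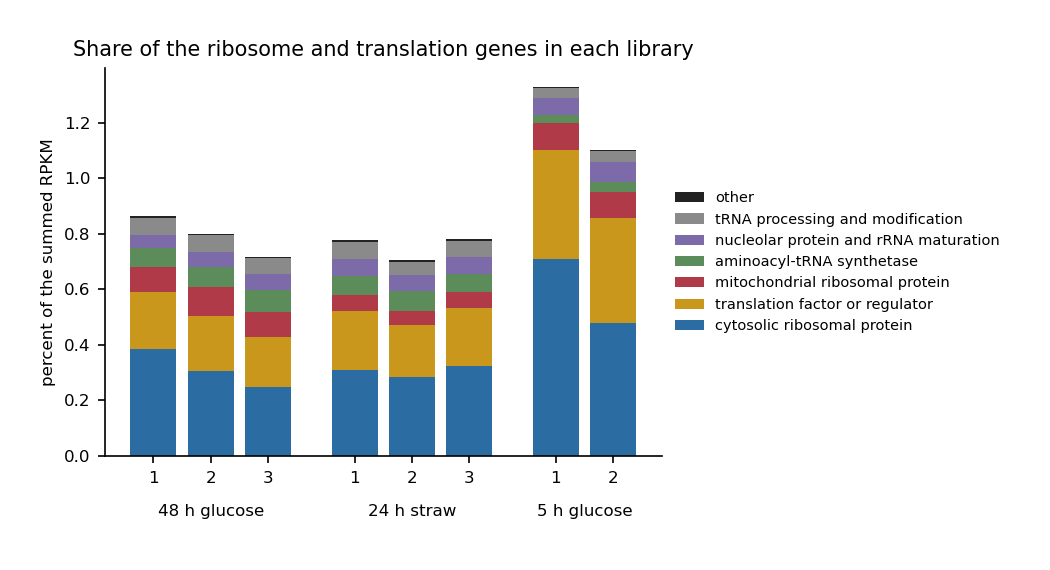
Stacked bars give the percent of the summed deposited RPKM of each library (vertical axis) that the members take, by role, for the 3 libraries of 48 h glucose, the 3 of 24 h straw and the 2 of 5 h glucose (horizontal axis). Both libraries of 5 h glucose, at 1.10% and 1.33%, stand above the other 6, which lie between 0.705% and 0.863%.

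Levels of single members spanned a wide range, and their order was led in every condition by rps30 and then the candidate eIF1A gene. In 48 h glucose the highest of the 34 tested was rps30 (transcript ID 68107), with a mean normalised RPKM of 1689, higher than 99.2% of all genes tested. It was followed by the candidate eIF1A gene (55969) at 914, an aspartyl-tRNA synthetase (67859) at 406, rpl15 (62820) at 404, the GCN1 homologue (65242) at 395 and rps26 (68909) at 382, and the last 4 of these did not differ beyond their spread. The median tested member stood at 83.9 in 48 h glucose, 50.8 in straw and 87.5 in 5 h glucose, against 32.6, 36.3 and 32.4 for all genes tested. By mean normalised RPKM, 14 members were highest in 48 h glucose, 4 in straw and 16 in 5 h glucose. This split depends on the scaling. By mean deposited RPKM most of the 34 were highest in straw, such as rpl15 with 45.3 in 48 h glucose, 68.6 in straw and 40.4 in 5 h glucose.

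**Figure D2:**
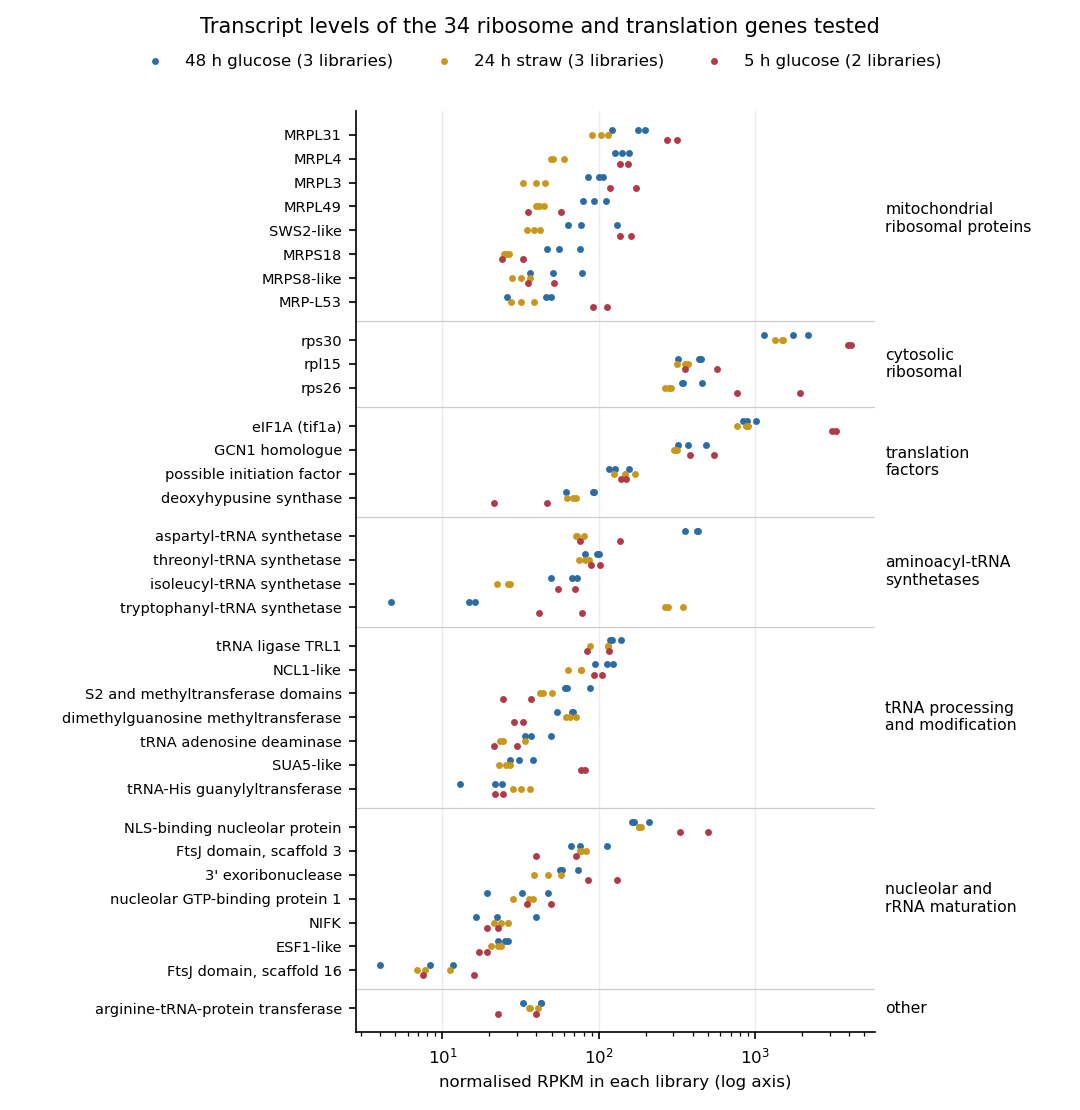
Each point is the normalised RPKM of a member in 1 library (log axis), with the 34 members tested in rows grouped by role and the conditions in colour. Most mitochondrial ribosomal proteins have their straw points to the left of the 48 h glucose points, and rps30, rps26 and eIF1A have both 5 h glucose points to the right of all others.

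The mitochondrial ribosomal proteins had the largest share of called genes on straw among the role groups, 87.5%, against 58.8% of all genes tested (28.2% lower). Of the 8, 7 were lower in 24 h straw than in 48 h glucose and 0 were higher by edgeR (also 0 at an unadjusted p below 0.05 and with DESeq2), with log2 fold changes from -1.39 to -0.32 and a median of -1.19. After glucose had been added for 5 h, 5 of the 8 (62.5%) were higher than on straw and none was called lower, against 58.5% of all genes called there (28.5% higher), with a median of 1.48, while MRPL49 (67366), MRPS18 (68636) and the MRPS8-like gene (62721) had log2 fold changes of only 0.14 ± 0.28, 0.15 ± 0.32 and 0.44 ± 0.37. Under the totals behind the RPKM the median of the group was still below 0 on straw (-0.39, with 2 lower) and still above 0 at 5 h (0.22), but only 1 of the 8 was then called higher at 5 h and the 3 genes just named were called lower. Across the other 14 alternatives, 6 or 7 were lower on straw and 5 were higher at 5 h.

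MRPL4 (55752; scaffold 2, 406994 to 407843), a protein of the large mitochondrial subunit in yeast, had the largest decrease of the group. Its normalised RPKM was 127, 156 and 140 in 48 h glucose, 50.9, 60.4 and 49.6 in straw, and 153 and 136 in 5 h glucose. The straw libraries lay below all others and the glucose conditions overlapped. It was 2.63-fold lower on straw (log2 -1.39 ± 0.17, adjusted p = 1.1e-06 by edgeR), 1.43 ± 0.20 higher at 5 h than on straw (adjusted p = 6.7e-06), and differed by 0.04 ± 0.19 between 5 h and 48 h glucose (adjusted p = 0.88). MRPL3 (63269), also of the large subunit, went further after glucose. It had 85.9, 100 and 107 in 48 h glucose, 45.1, 32.8 and 39.7 in straw, and 119 and 175 in 5 h glucose, with no overlap between any conditions. Its log2 fold changes were -1.31 ± 0.19 on straw (adjusted p = 7.6e-06 by edgeR), 1.90 ± 0.21 at 5 h over straw (adjusted p = 4.4e-07) and 0.59 ± 0.21 at 5 h over 48 h glucose (adjusted p = 0.023). The last call was the weakest made among the members in that comparison, and was lost without 5 h library 2 (0.24, adjusted p = 0.42) and without 48 h library 1 (0.51, adjusted p = 0.083).

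The SWS2-like gene (69399; scaffold 28, 308179 to 308606), related to a small-subunit protein of yeast mitochondria, had the largest increase of the group at 5 h. Normalised RPKM was 77.4, 132 and 63.3 in 48 h glucose, 38.3, 34.5 and 42.2 in straw, and 138 and 161 in 5 h glucose. It was 2.36-fold lower on straw than in 48 h glucose (log2 -1.24 ± 0.27, adjusted p = 0.00061 by edgeR) and 3.86-fold higher at 5 h than on straw (log2 1.95 ± 0.30, adjusted p = 2.8e-05). Between 5 h and 48 h glucose it was the first member to miss the threshold (0.71 ± 0.30, adjusted p = 0.054), although the libraries did not overlap, and it was called there without 48 h library 2 (1.07, adjusted p = 0.0065). MRPL31 (65808) fell by 0.69 ± 0.20 on straw and rose by 1.52 ± 0.23 at 5 h, to above its 48 h level (0.83 ± 0.23). Its decrease on straw was no longer called without 48 h library 1, nor its 5 h over 48 h difference without 5 h library 2. MRP-L53 (53350), with only 10 to 36 reads a library, did not pass the test on straw (-0.32 ± 0.32) and was higher at 5 h than in straw (1.63 ± 0.34) and in 48 h glucose (1.31 ± 0.36, not called without 5 h library 1). MRPL49 and MRPS18 were lower at 5 h than in 48 h glucose, by log2 fold changes of -1.04 ± 0.27 and -1.06 ± 0.31, and both calls were lost without 5 h library 2. The MRPS8-like gene, the weakest of the 7 lower on straw (-0.76 ± 0.28, adjusted p = 0.025), had overlapping libraries and lost its call without 48 h library 3, straw library 2 or straw library 3.

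Of the 3 cytosolic ribosomal proteins, none was called by edgeR between straw and 48 h glucose (0 at an unadjusted p below 0.05 and 0 with DESeq2), with log2 fold changes of -0.45, -0.23 and -0.21, which turned to 0.34, 0.54 and 0.60 under the totals behind the RPKM. At 5 h, rps26 and rps30 were higher than in straw and in 48 h glucose and rpl15 was not called. The group thus had 0%, 66.7% and 66.7% called in the 3 comparisons, against 58.8%, 58.5% and 48.8% of all genes tested. The rps26 gene (68909; scaffold 26, 73515 to 74118) encodes a protein of the small subunit. Its normalised RPKM was 457, 342 and 347 in 48 h glucose, 282, 267 and 292 in straw, and 1932 and 763 in 5 h glucose. Both 5 h libraries lay above all others, and they differed from each other by more than any other pair of the same condition. It was 4.79-fold higher at 5 h than on straw (log2 2.26 ± 0.27, adjusted p = 1.1e-06 by edgeR) and 1.81 ± 0.27 above 48 h glucose (adjusted p = 2.8e-05). The size rested on library 1, without which the values were 1.40 and 0.96, both still called. The straw value of -0.45 ± 0.25 (adjusted p = 0.13) had no overlap between libraries, and without either 5 h library it was called lower (adjusted p of 0.016 in both cases).

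The gene of S30 (rps30, 68107; scaffold 23, 429986 to 430375), another protein of the small subunit and the shortest member with a coding length of 189 bp, had 2172, 1747 and 1149 normalised RPKM in 48 h glucose, 1479, 1341 and 1512 in straw and 4131 and 3966 in 5 h glucose. Straw and 48 h glucose overlapped, and both 5 h libraries lay far above them. It was 2.80-fold higher at 5 h than on straw (log2 1.49 ± 0.22, adjusted p = 1.2e-05 by edgeR) and 2.39-fold higher than in 48 h glucose (1.26 ± 0.22, adjusted p = 0.00013). Under the totals the first of these values was 0.25 and no longer called. Without 48 h library 3 it was called lower on straw (-0.44, adjusted p = 0.043). For rpl15 (62820; scaffold 11, 404817 to 405969), a protein of the large subunit, the values were 436, 321 and 453 in 48 h glucose, 315, 359 and 372 in straw, and 570 and 357 in 5 h glucose, and all conditions overlapped. The difference between 5 h glucose and straw was 0.41 ± 0.21 (adjusted p = 0.11 by edgeR), with a reversal to -0.78 under the totals. It was 0.65 without 5 h library 2 and -0.009 without 5 h library 1.

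Of the 4 translation factors and regulators, none was called by edgeR between straw and 48 h glucose (0 at an unadjusted p below 0.05 and 0 with DESeq2), while under the totals 2 were called higher. At 5 h, 2 were higher and 1 was lower than on straw, or 1 higher and 3 lower under the totals. After TMM normalisation 0% and 75% of the group were thus called in these comparisons, against 58.8% and 58.5% of all genes tested. The candidate tif1a gene (55969; scaffold 2, 294122 to 294740) encodes eIF1A, which helps the small subunit to scan for the start codon. Its normalised RPKM was 1019, 834 and 890 in 48 h glucose, 906, 769 and 871 in straw, and 3127 and 3282 in 5 h glucose. The libraries of 48 h glucose and straw overlapped, and the 5 h libraries were close to each other and far above the rest. It was 3.78-fold higher at 5 h than on straw (log2 1.92 ± 0.18, adjusted p = 7.1e-08 by edgeR) and 3.50-fold higher than in 48 h glucose (1.81 ± 0.18, adjusted p = 4.0e-07), with values of 0.67 and 1.36 under the totals, both called. The gene of deoxyhypusine synthase (dhyS, 54448), which starts the hypusine modification of eIF5A, moved the other way. It had 93.8, 92.3 and 62.0 in 48 h glucose, 71.2, 62.8 and 68.4 in straw and 21.5 and 46.5 in 5 h glucose, and both 5 h libraries lay below all others. It fell by 0.98 ± 0.28 between straw and 5 h (adjusted p = 0.0068 by edgeR), a decrease not called without 5 h library 1 and of -1.71 without 5 h library 2, and was 2.42-fold lower at 5 h than in 48 h glucose (log2 -1.28 ± 0.29, adjusted p = 0.0014, and -2.00 without 5 h library 2).

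The GCN1 homologue (65242) is, in yeast, needed for activation of the kinase GCN2 when amino acids run short. With a coding length of 8520 bp it was the longest member and held 44.4% ± 5.20 (SD, n = 3) of all member reads in 48 h glucose, 46.6% ± 1.82 (n = 3) in straw and 41.3% ± 5.53 (n = 2) in 5 h glucose, which is why member shares here are given per length. Its normalised RPKM was 374, 489 and 321 in 48 h glucose, 303, 316 and 306 in straw, and 386 and 544 in 5 h glucose. It was higher at 5 h than on straw by 0.59 ± 0.23 (adjusted p = 0.035 by edgeR), a call lost without any single straw library and without 5 h library 2, and turned to -0.70 under the totals. The possible initiation factor (62345) had log2 fold changes of 0.15 ± 0.17, -0.03 ± 0.20 and 0.12 ± 0.21 in the 3 comparisons, with no call.

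The 4 aminoacyl-tRNA synthetases each had a different course. The gene annotated as tryptophanyl-tRNA synthetase (65741; scaffold 17, 84642 to 85382) had the largest change of all members. Its coding length is 645 bp, short beside the 1494 to 2859 bp of the other synthetase genes. It had 16.2, 14.7 and 4.71 normalised RPKM in 48 h glucose, 277, 345 and 265 in straw, and 41.3 and 78.7 in 5 h glucose, from 18, 14 and 4 reads, 467, 573 and 539 reads, and 21 and 43 reads. No libraries overlapped between conditions. It was 23.9-fold higher on straw than in 48 h glucose (log2 4.58 ± 0.29, adjusted p = 1.4e-10 by edgeR), above 96.0% of all genes tested, and 4.88-fold lower at 5 h than on straw (log2 -2.29 ± 0.29, adjusted p = 2.6e-06). It remained 2.29 ± 0.39 above 48 h glucose at 5 h (adjusted p = 0.0001). Without 5 h library 2 the last 2 values were -2.89 and 1.69, and all 3 kept their sign under the totals (5.37, -3.62 and 1.75).

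The gene with the aspartyl-tRNA synthetase motif (67859; scaffold 23, 393795 to 395786) changed in the opposite direction on straw. Normalised RPKM was 359, 426 and 433 in 48 h glucose, 80.0, 71.2 and 72.4 in straw, and 75.4 and 136 in 5 h glucose. All 48 h libraries lay above all others, and straw overlapped with 5 h glucose. It was 5.44-fold lower on straw (log2 -2.44 ± 0.20, adjusted p = 4.7e-09 by edgeR) and 3.83-fold lower at 5 h than at 48 h in glucose (log2 -1.94 ± 0.23, adjusted p = 3.2e-06). Between 5 h glucose and straw it narrowly missed the threshold (0.51 ± 0.22, adjusted p = 0.058), with 0.83 and a call without 5 h library 1 (adjusted p = 0.0022), -0.04 without 5 h library 2, and -0.82 under the totals. The isoleucyl-tRNA synthetase gene (63935; scaffold 13, 631563 to 634550) was back within its 48 h range at 5 h. Its values were 67.4, 49.3 and 72.5 in 48 h glucose, 26.1, 22.4 and 27.0 in straw, and 55.1 and 70.6 in 5 h glucose. Straw lay below both glucose conditions, which overlapped, and the log2 fold changes were -1.32 ± 0.18 on straw (adjusted p = 3.7e-06 by edgeR) and 1.32 ± 0.20 at 5 h (adjusted p = 2.2e-05). The threonyl-tRNA synthetase gene (64327) had 74.7 to 102 normalised RPKM in all 8 libraries and no call, with log2 fold changes of -0.20 ± 0.15, 0.24 ± 0.18 and 0.04 ± 0.18.

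**Figure D3:**
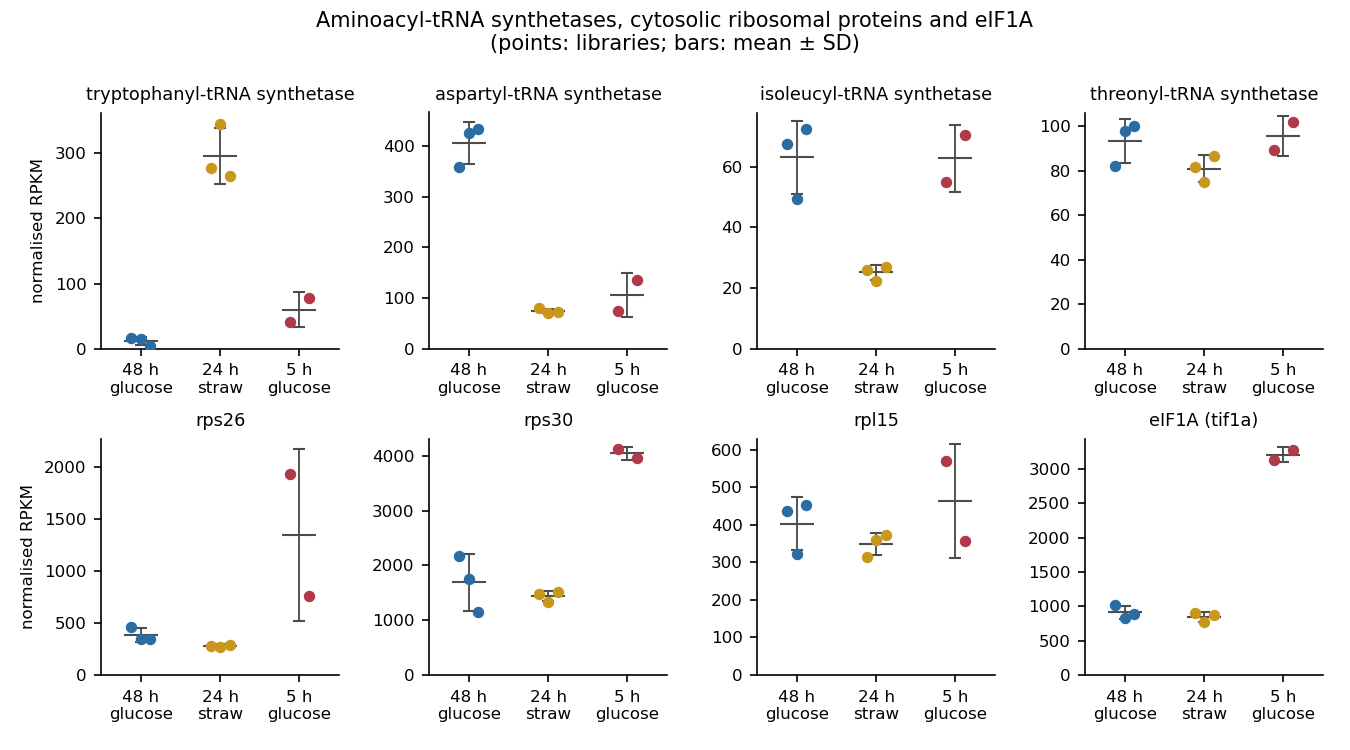
Points are the normalised RPKM (linear axis from 0) of the 4 aminoacyl-tRNA synthetase genes, the 3 cytosolic ribosomal protein genes and the eIF1A gene in each library, and bars are the mean ± SD of 3, 3 and 2 libraries. The tryptophanyl-tRNA synthetase gene peaks in straw (265 to 345), the aspartyl-tRNA synthetase gene is high only in 48 h glucose (359 to 433), and rps30 and eIF1A are highest in both 5 h libraries.

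Genes of tRNA processing and modification had calls in both directions, with 57.1%, 42.9% and 42.9% called in the 3 comparisons, against 58.8%, 58.5% and 48.8% of all genes tested. Of the 7 tested, 1 was higher and 3 were lower on straw than in 48 h glucose, 2 were higher and 1 was lower at 5 h than on straw, and 1 was higher and 2 were lower at 5 h than in 48 h glucose. Under the totals behind the RPKM these became 3 higher and 0 lower, 0 higher and 6 lower, and 1 higher and 5 lower. The SUA5-like gene (53366), related to a yeast protein of the threonylcarbamoyl modification of tRNA, was the clearest increase. It had 38.0, 27.1 and 30.9 normalised RPKM in 48 h glucose, 27.3, 23.1 and 25.5 in straw, and 76.5 and 82.3 in 5 h glucose, and rose 3.13-fold between straw and 5 h (log2 1.65 ± 0.20, adjusted p = 1.9e-06 by edgeR) and 2.47-fold over 48 h glucose (1.31 ± 0.21, adjusted p = 6.0e-05). The gene with the domain of the N2,N2-dimethylguanosine tRNA methyltransferase (55790) had 68.9, 67.2 and 54.4 in 48 h glucose, 71.3, 61.5 and 65.1 in straw, and 28.8 and 33.0 in 5 h glucose. It was 2.13-fold lower at 5 h than on straw (log2 -1.09 ± 0.21, adjusted p = 0.00019 by edgeR) and fell by as much against 48 h glucose (-1.04 ± 0.21, adjusted p = 0.00051).

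The NCL1-like cytosine methylase gene (55981) fell by 0.61 ± 0.16 on straw (adjusted p = 0.0032 by edgeR). Its levels were 124, 95.1 and 113 normalised RPKM in 48 h glucose, 77.1, 63.9 and 76.7 in straw, and 93.7 and 105 in 5 h glucose, so that straw lay below all other libraries. Its increase at 5 h (0.46 ± 0.18, adjusted p = 0.041) was the weakest call of that comparison, was lost without any single straw library or either 5 h library, and turned to -0.81 under the totals. The gene of tRNA(His) guanylyltransferase (64065), which adds the extra guanosine of histidine tRNA, was the weakest call on straw. It had 24.2, 21.6 and 13.0 in 48 h glucose, 36.1, 28.1 and 31.8 in straw and 21.8 and 24.6 in 5 h glucose, from 14 to 82 reads, and its increase on straw of 0.68 ± 0.26 (adjusted p = 0.030 by edgeR) was lost without 48 h library 3, straw library 1 or straw library 3. The gene with ribosomal protein S2 and methyltransferase domains (63503) fell by 0.63 ± 0.19 on straw (not called without 48 h library 2) and stood 1.20 ± 0.26 lower at 5 h than in 48 h glucose. The tRNA adenosine deaminase gene (55213) fell by 0.57 ± 0.21 on straw (not called without 48 h library 2, straw library 2 or straw library 3). The decreases of 55981, 63503 and 55213 on straw, like those of MRPL31 and the MRPS8-like gene, turned to values from 0.05 to 0.23 under the totals, none of them called. The tRNA ligase gene TRL1 (68582) had 84.7 to 139 normalised RPKM over the 8 libraries and no call.

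None of the 7 nucleolar and rRNA maturation genes was called by edgeR between straw and 48 h glucose (0 at an unadjusted p below 0.05 and 0 with DESeq2), where their log2 fold changes lay between -0.40 and 0.08. Under the totals behind the RPKM 4 of them were called higher, with a median of 0.71, against 0.85 for all genes tested. After glucose, 2 of the 7 were higher than on straw and than in 48 h glucose, so that 0%, 28.6% and 28.6% were called in the 3 comparisons. Of all genes tested, 58.8%, 58.5% and 48.8% were called. Under the totals 0 of the 7 were higher and 4 lower than on straw, and 1 higher and 2 lower than in 48 h glucose. The gene of a nucleolar protein that binds nuclear localization sequences (56384) had 164, 169 and 210 normalised RPKM in 48 h glucose, 181, 180 and 187 in straw, and 334 and 497 in 5 h glucose. It rose 2.28-fold between straw and 5 h (log2 1.19 ± 0.19, adjusted p = 3.6e-05 by edgeR) and 2.30-fold over 48 h glucose (1.20 ± 0.19, adjusted p = 6.4e-05), and the first value turned to -0.12 under the totals. The gene with a 3' exoribonuclease domain (55589), whose annotation names neither rRNA nor the nucleolus, had 74.2, 58.3 and 56.4 in 48 h glucose, 57.8, 38.8 and 47.1 in straw, and 85.5 and 130 in 5 h glucose. It was the first member to miss the threshold on straw (-0.40 ± 0.21, adjusted p = 0.11 by edgeR) and was higher at 5 h than on straw (1.17 ± 0.24, adjusted p = 0.00035, and -0.13 under the totals) and than in 48 h glucose (0.77 ± 0.24, adjusted p = 0.013, not called without 5 h library 2). The other 5, among them the genes of nucleolar GTP-binding protein 1 (55766), the RNA-binding protein NIFK (52976) and the ESF1-like protein (68184), had no call in any comparison, and the arginine-tRNA-protein transferase gene (67205) had none either.

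**Figure D4:**
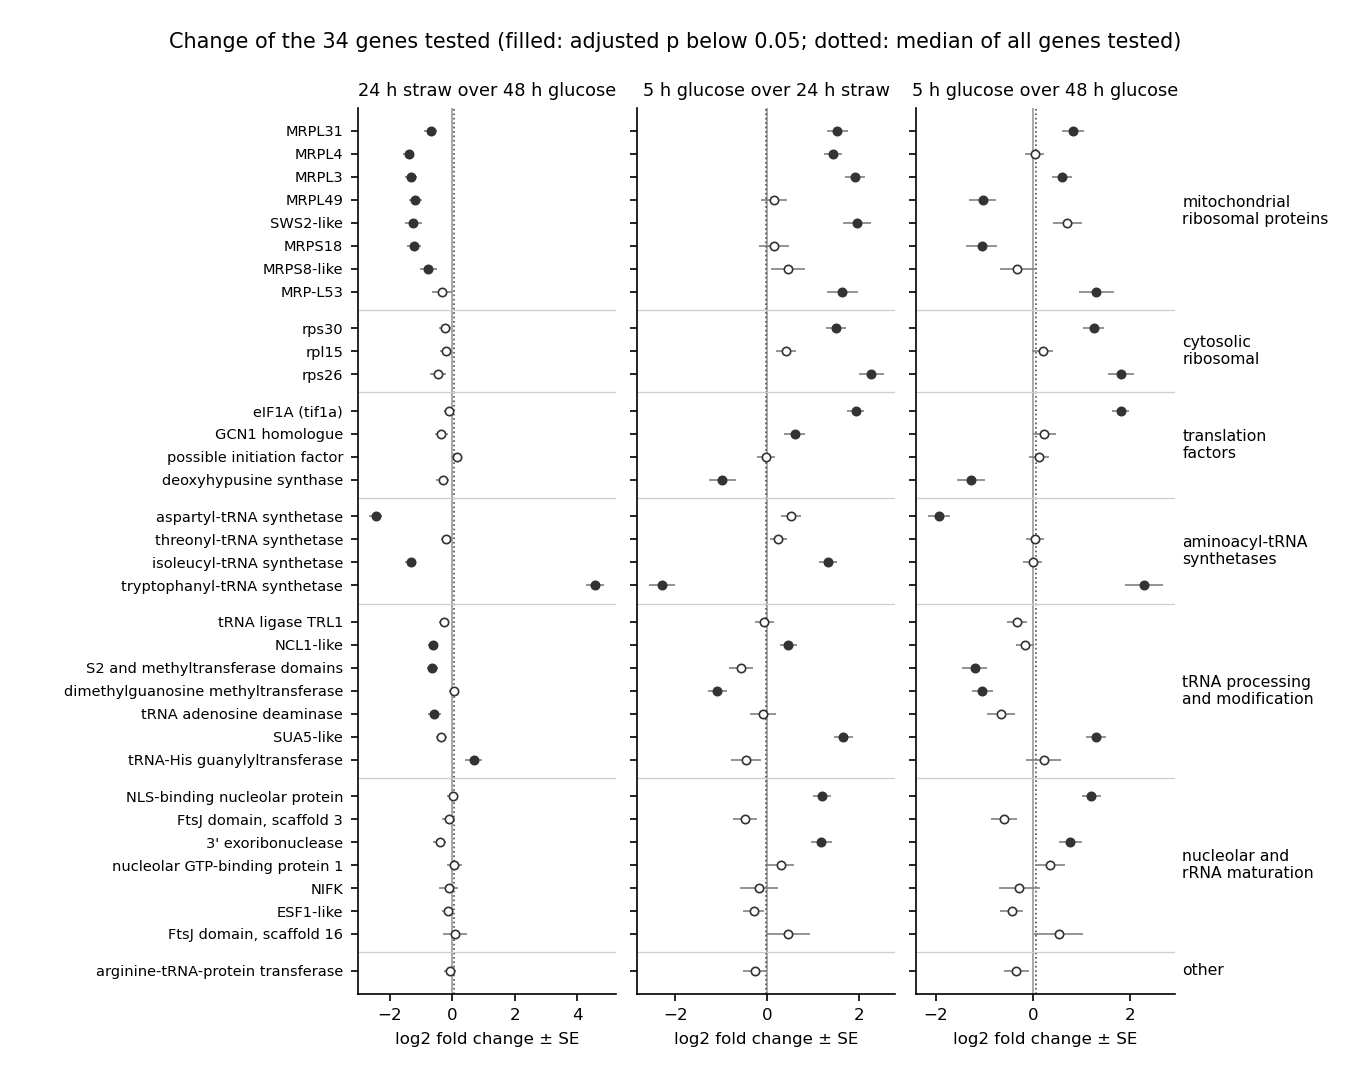
Log2 fold changes with their SE (horizontal axis) of the 34 members tested, grouped by role, in the 3 comparisons, with filled circles for an adjusted p below 0.05 and a dotted line at the median of all genes tested. The mitochondrial ribosomal proteins lie to the left on straw (median -1.19, or -0.39 under the totals behind the RPKM) and to the right at 5 h over straw (1.48, or 0.22), and the nucleolar genes lie around 0 on straw (median -0.11, or 0.71 under the totals).

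There were 3 members with too few reads for the test. The gene with glutathione S-transferase and ribosomal protein S15 domains (54179) had 0 reads in all 8 libraries. The ribosomal protein S2 motif gene (67504) had 8 reads in total, at most 2 in a library, and the TRM11-like gene (68605), related to a yeast tRNA guanosine methyltransferase, had 52 in total and 3 to 16 a library. At this depth, with 3 reads a library as the limit that a count of 0 allows, differences of the first 2 genes could not be detected.

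Of the genes close in function in the same rows that the words had missed, 10 were set aside as neighbours, mostly parts of the small-subunit processome (the complex that cuts the rRNA precursor) and elongation factors. On straw 5 of these 10 were lower than in 48 h glucose and 0 higher, at 5 h 3 were higher than on straw and 0 lower, and against 48 h glucose 2 were higher and 4 lower by edgeR. These are 50%, 30% and 60% called, against 58.8%, 58.5% and 48.8% of all genes tested. Both counts of 0 were also 0 at an unadjusted p below 0.05 and with DESeq2. Under the totals the splits became 4 higher and 1 lower on straw, 0 higher and 7 lower at 5 h against straw, and 2 higher and 5 lower against 48 h glucose. Mitochondrial elongation factor G (62470), which moves the mitochondrial ribosome along its mRNA, had 151, 152 and 256 normalised RPKM in 48 h glucose, 50.6, 38.1 and 49.3 in straw, and 111 and 56.3 in 5 h glucose. It was 4.03-fold lower on straw (log2 -2.01 ± 0.24, adjusted p = 9.7e-07 by edgeR) and rose by 0.86 ± 0.27 at 5 h (adjusted p = 0.012, and -0.31 under the totals). The nop1 gene (66436), which encodes the rRNA methylase fibrillarin, fell by 0.95 ± 0.20 on straw (adjusted p = 0.00051 by edgeR, and -0.11 with no call under the totals). The UTP7 gene (65225) of the processome had 25.2, 31.8 and 26.0 in 48 h glucose, 29.5, 32.5 and 25.0 in straw, and 96.2 and 106 in 5 h glucose, an increase of 1.80 ± 0.19 over straw (adjusted p = 2.9e-07 by edgeR) and of 1.87 ± 0.20 over 48 h glucose. UTP11 (67840) rose by 1.20 ± 0.27 at 5 h (adjusted p = 0.0011), with 55.8 and 117 in the 5 h libraries against 26.9 to 42.6 in the others, but not without 5 h library 2 (0.50, adjusted p = 0.19), and the value turned to -0.14 under the totals.

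The members lay on 15 scaffolds of the assembly. UTP11 (scaffold 23, 396370 to 397297) is adjacent to the aspartyl-tRNA synthetase gene described above, and over the same libraries the former differed by 0.19 ± 0.25 and the latter by -2.44 ± 0.20 between straw and 48 h glucose. Of the 36 members with a RefSeq gene, the annotated span equalled the coding length in 12 and was longer, which leaves room for introns, in 24.

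**Figure D5:**
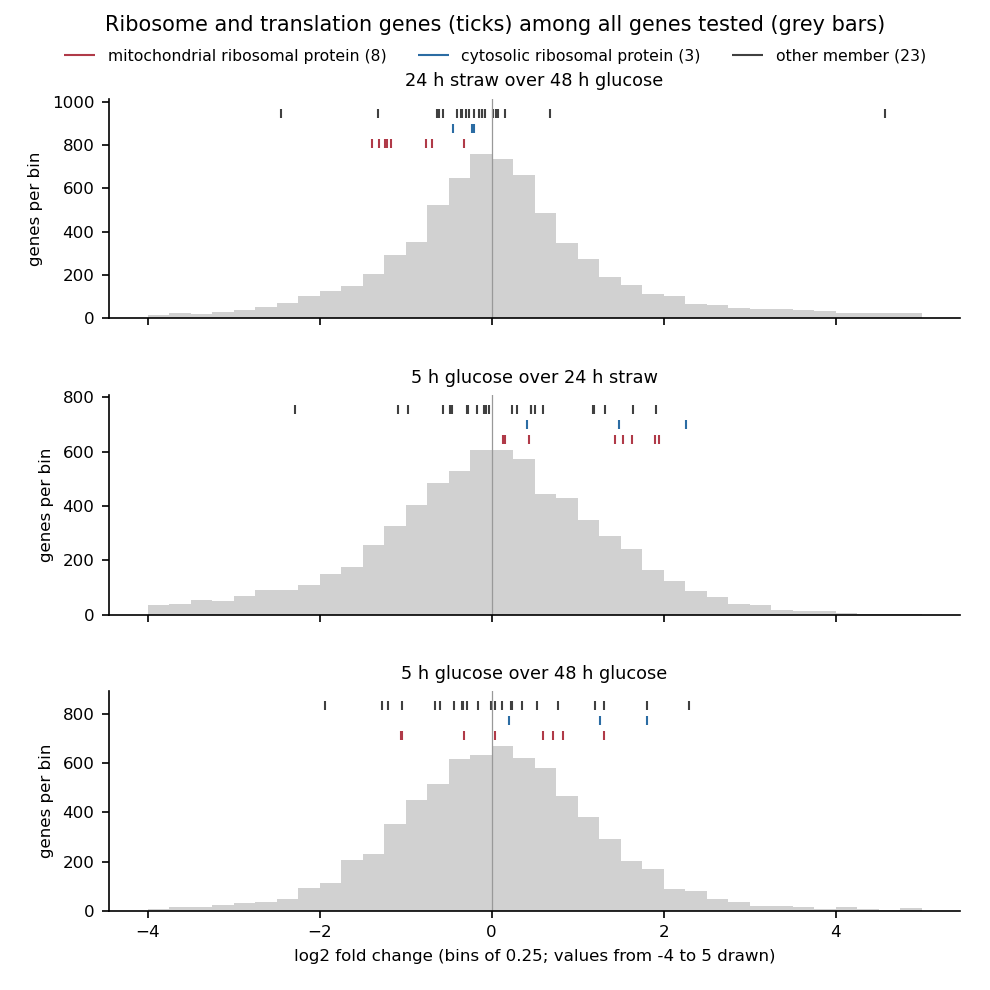
Grey bars count the 7211 genes tested by their log2 fold change (bins of 0.25, values from -4 to 5 drawn) in the 3 comparisons, and ticks mark the members, with the mitochondrial and cytosolic ribosomal proteins in colour. The members spread over the range of the other genes, with medians of -0.31, 0.42 and 0.08, which turn to 0.47, -0.87 and -0.36 under the totals behind the RPKM.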

How the data were processed

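RNA of 8 cultures of *T. reesei* QM6a was depleted of rRNA and sequenced as SOLiD libraries of 50 bp reads. The sense counts of each gene model, used here, were deposited from uniquely mapped reads: the authors mapped reads with BioScope 1.3 to JGI assembly version 2 with the filtered models 2.0, removed reads on rRNA genes and counted with HTSeq. Unique counting takes reads from genes with near-identical copies, which was not tested. The RPKM were deposited as well: the authors divided each count by the length of the gene model and by a library total, calculated back here from genes with at least 100 reads. Lengths of all 37 members are multiples of 3 and are called coding length.

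Members were found by 4 words in the annotation and put into 8 roles by that annotation. Members, roles, neighbouring genes and the genes to be named were chosen with earlier results of these data known. Values in every library are given for the cytosolic ribosomal proteins, for the 4 called members with the largest change and no overlap between libraries in each comparison, and for those just past and just short of the threshold. The 2 most changed neighbouring genes of each comparison were named, nop1 by its fold change and UTP11 partly by a range. Other members were named by their role.

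Changes were tested with the quasi-likelihood test of edgeR on counts after filterByExpr (7211 genes), with TMM factors from 0.893 to 1.06. The model held all 8 libraries and a term for condition. P values were adjusted after Benjamini-Hochberg over all genes tested. When tested on simulated data in which 200 genes were changed 4-fold, it recovered 195, 184 and 183 of them, with 7, 6 and 8 wrong calls, for straw over 48 h glucose, 5 h glucose over straw and 5 h over 48 h glucose. The 200 were part of 7031 to 7051 genes, whereas 48.8% to 58.8% of all genes tested were called in the libraries here. How the scaling and the error rate of the test hold when so many genes change was not tested. Libraries of the same condition came from separate cultures. Alternatives were DESeq2, other scalings (library totals behind the RPKM, counts with no TMM factor), no filter, only the conditions compared, a replicate block, straw libraries 1 and 3 summed, other gene lists and leaving out each library. Gene positions are from the RefSeq annotation of the same assembly version. Promoter motifs were not searched, since no sequence was used here. The SE of a fold change came from the quasi-likelihood test, which includes the spread between libraries, and an SD is over libraries. The limit of 3 reads covers counting error only. Versions were edgeR 4.0.16 and DESeq2 1.42.0 under R 4.3.3, with tables and plots made in Python 3.11.15 (numpy 2.4.6, matplotlib 3.10.9, pandas 2.3.3).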

Additional observations from a re-analysis of the deposited data

How the results depend on the processing

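When libraries were scaled by the totals behind the RPKM, the members called were 13 higher and 4 lower on straw, 3 higher and 21 lower at 5 h over straw, and 6 higher and 12 lower at 5 h over 48 h glucose, and their medians turned to 0.47, -0.87 and -0.36. All genes called were then 4294 higher and 753 lower, 443 and 4850, and 847 and 2415, in place of 2203 and 2034, 2056 and 2166, and 1850 and 1671. Among the genes named, rpl15 reversed to 0.60 on straw and, at 5 h over straw, rpl15 to -0.78, the NCL1-like gene to -0.81, the aspartyl-tRNA synthetase gene to -0.82 and UTP11 to -0.14. Members higher on straw numbered 1 with DESeq2 and 1 with straw libraries 1 and 3 summed, and 1 or 2 on leaving out each library. Members lower at 5 h over straw numbered 5 with no TMM factor and 2 to 6 on leaving out each library, the 6 without 5 h library 2. Where a 5 h library was left out, the other was assumed to vary like the libraries of the other conditions. Of the called members, 9 of 14, 14 of 17 and 10 of 16 were called in every fit that left out a library. With the neighbouring genes added, 10 were lower at 5 h over 48 h glucose. Genes of the antisense list, chosen after the data had been seen, gave 0 higher on straw, 1 lower at 5 h over straw, and 7 called (5 higher, 2 lower) at 5 h over 48 h glucose. As a share of counts in place of RPKM, the members took 0.751% in 48 h glucose, 0.587% in straw and 0.890% in 5 h glucose. Correlations of same-numbered libraries lay from -0.01 to 0.02, apart from 0.24 for library 2 of 48 h and 5 h glucose. With so few libraries per condition they cannot decide whether the replicate numbers pair the libraries. With a replicate block 2 members were higher and 12 lower on straw, 13 and 4 at 5 h over straw, and 10 and 8 at 5 h over 48 h glucose. Depth limits the members with few reads at 5 h most. The promoter motifs were not run.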

Other observations

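Further genes of the same kind stand in the study's list of genes with antisense reads. They were added after the values had been seen, are a selected set and are given as values. The same words found 17 genes there that are not members, of which 16 could be tested. On straw 0 were higher by edgeR (1 at an unadjusted p below 0.05, 0 with DESeq2) and 11 lower than in 48 h glucose, at 5 h 12 were higher and 1 lower than on straw, and 5 h over 48 h glucose 5 were higher and 2 lower, 7 in all. These are 68.8%, 81.2% and 43.8% called, against 58.8%, 58.5% and 48.8% of all genes tested. Their medians relative to the median gene were -0.75, 1.13 and 0.09. Of 4 tested genes annotated as ribosomal proteins with no mention of mitochondria, the gene for 60S protein L38 (transcript ID 121372) had 2208, 1765 and 1351 normalised RPKM in 48 h glucose, 950, 949 and 954 in straw, and 4127 and 5721 in 5 h glucose, with log2 fold changes of -0.90 on straw and 2.37 at 5 h over straw. The gene annotated as ribosomal protein S12 (21170) had 1262, 1138 and 1096, then 531, 574 and 534, then 1793 and 2319, with -1.09 and 1.91, and its annotation states no compartment. The gene related to L14 (80211) had -0.79 and 0.79, and that of L8 (124110) -0.55 and 0.80, and neither was called between 5 h and 48 h glucose (-0.01 and 0.26). All 4 were called lower on straw and higher at 5 h over straw, but under the totals behind the RPKM none was called on straw (-0.12, -0.30, -0.02 and 0.26), and at 5 h over straw L38 and S12 were called higher (1.08 and 0.63) while L14 and L8 turned to -0.47 and -0.44 with no call. Under the totals behind the RPKM 4 of the 16 genes were called higher and 2 lower on straw, with an absolute median of 0.09. The test of a difference between these genes and the members was not run.

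A second gene with similarity to tryptophanyl-tRNA synthetases (82442) is in that list. Its normalised RPKM was 29.4, 37.7 and 37.2 in 48 h glucose, 21.6, 16.1 and 18.1 in straw, and 13.7 and 12.7 in 5 h glucose. It fell by 0.89 on straw (-0.09 with no call under the totals), where the short member 65741 rose 23.9-fold, and by 1.39 between 48 h and 5 h glucose. The summed pattern of both genes was not tested. Genes of eIF3 in the list (78046, 80538 and 74774) were each higher at 5 h than on straw, by 1.45, 1.35 and 2.31 on the log2 scale, next to the 1.92 of eIF1A, and under the totals by 0.23, 0.13 and 1.13, of which the last was called.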
